A study of Mus musculus with 7 samples.

Results

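The cytosolic ribosomal protein genes were measured in nasal tissue of mice that had inhaled diesel exhaust particles (DEP) and of control mice. A gene was taken as a member when its RefSeq symbol, found through the transcript accession of an array probe, began with Rpl, Rps or Rplp followed by a digit. The Rps6k kinases, symbols ending in -ps and other pseudogenes were left out. This rule uses names and no measured value. It gave 86 genes with 171 probes among 32095 names on the array, and 85 of these genes, with 164 probes, were bright enough to be tested among 20664 names tested. They comprised 42 genes of the large subunit, 30 of the small subunit, 3 of the stalk, 7 paralogs and 3 genes that carry a name of this kind but are not counted among the usual subunits (*Rps19bp1*, *Rpl7l1* and *Rps23rg1*). The testis paralog *Rpl10l* was the gene that was not tested. In RefSeq 88 protein-coding genes fit the rule, and *Rpl37* and *Rps27rt* were the members to which no probe was matched.

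All RNA came from the nasal septum and turbinate of female BALB/c mice, with an age of 6 weeks in the labels of both exposed and control animals. DEP mice breathed particles at 100 μg/m3, nebulized in saline, for 1 hour on 5 days of the week, and control mice were given saline in the same way. Each 2-colour array carried DEP RNA labelled with Cy5 and control RNA labelled with Cy3, with no dye swap, on 4 arrays after 4 weeks of exposure and on 3 arrays after 8 weeks. All 4-week arrays shared 1 slide, and the 8-week arrays shared a different one. Hence exposure time and slide cannot be told apart, and neither can a DEP effect and a dye effect of a probe within 1 exposure time. How many mice gave the RNA of an array, and whether arrays shared control RNA, is not given in the sources used here, so p-values measure the spread between arrays, which may be technical in part. In this bulk tissue, fewer cells of a type and less RNA per cell cannot be told apart.

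The cytosolic ribosome translates the messenger RNAs of the cell. Its small subunit decodes the message, its large subunit joins amino acids, and the stalk of Rplp0, Rplp1 and Rplp2 recruits the factors that drive elongation. Ribosomal protein mRNAs are among the most abundant in most cells and are largely made in concert. Many of them begin with a run of pyrimidines (C or T) at the transcription start, the 5′ terminal oligopyrimidine (TOP) motif, through which mTOR and the RNA-binding protein Larp1 regulate their translation and stability.

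Runs of C or T were counted wherever they lay in a window around the start, so the count is not one of TOP motifs. Windows are given for members on which the results below turn. Of the 86 genes, 66 had a promoter sequence in the RefSeq set of GRCm38.p6, and 20 had no entry. A run of at least 8 consecutive C or T lay within 15 bases before to 15 bases after the start in 29 of the 66 members (43.9%) and in 13.9% of 27025 genes with an entry. The windows below run from 5′ to 3′ on the strand of the gene, the start is base 16 of 30, and capitals mark the longest run of C or T in the window. The first 3 belong to genes with long runs that lay low (*Rps15a*, *Rpl22l1*) or high (*Rpl38*) in DEP tissue at 4 weeks, and the last 3 to genes with short runs that lay low.
Rps15a, chr7:118116133-118116162, minus strand: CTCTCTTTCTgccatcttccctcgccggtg
Rpl22l1, chr3:28805493-28805522, plus strand: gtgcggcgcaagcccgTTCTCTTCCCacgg
Rpl38, chr11:114668565-114668594, plus strand: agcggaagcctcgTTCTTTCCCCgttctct
Rps3, chr7:99483695-99483724, minus strand: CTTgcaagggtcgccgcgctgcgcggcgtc
Rpl5, chr5:107900513-107900542, plus strand: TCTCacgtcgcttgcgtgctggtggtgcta
Rpl22, chr4:152325711-152325740, plus strand: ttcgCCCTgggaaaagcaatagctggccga
The longest run was 10 bases in *Rps15a*, *Rpl22l1* and *Rpl38*, 4 bases in *Rpl5* and at this start of *Rpl22* (the first of 2 listed), and 3 bases in *Rps3*. In *Rpl38* it spans the start, in *Rpl22l1* it begins at base 17 of the window, and in *Rps15a*, *Rpl5* and *Rps3* it begins at the window's edge, which may cut it. In these last 3 and at this start of *Rpl22* the run ends before the start. Over the 29 tested members with a run of at least 8, the median log2 ratio of DEP over control was -0.08 at 4 weeks and 0.19 at 8 weeks, against -0.09 and 0.14 over the 36 tested members without one. The 2 sets thus had like medians at 4 weeks and a somewhat different one at 8 weeks, and no test was made of this. In the whole promoters, from 250 bases before to 50 after the start, the letters CCGGAAGT (bound by ETS factors, either strand) were present in 15.2% of the members and 4.31% of all genes, and AAGATGGC (bound by YY1, either strand) in 9.09% and 3.19%. These letters and the run of C or T were counted separately and may overlap.

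The probes of the members were bright. A spot's brightness depends on the probe as well as on the transcript, so it is given here as a property of the probe. On the 7 arrays the members' median background-corrected log2 intensity was 13.75 to 14.07 in the DEP channel and 13.92 to 14.22 in the control channel, while the median over all genes tested was 7.5 to 7.97 and 7.91 to 8.09. No spot of any array was saturated. Of the 85 members, 80 lay in the brightest 10% of the genes tested, of which they made up 3.87%, and for 82 both channels exceeded the background clearly on all arrays. Before any normalization, the members' median log2 ratio was -0.37, 0.017, -0.19 and -0.32 on the 4-week arrays, where that of all genes was -0.26, 0.027, -0.099 and -0.18. On the 8-week arrays it was -0.17, -0.12 and -0.16 against -0.23, -0.24 and -0.34. Before the ratios were scaled, the members therefore lay under the median of all genes on each 4-week array and above it on each 8-week array. Most of all genes were dimmer, and these ratios still hold any trend with intensity.

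After 4 weeks, more ribosomal protein mRNAs fell than rose in DEP tissue, and 83 of 85 log2 ratios were under 0.5 in size. With loess normalization, which removes the dependence of the ratio on intensity within each array, the members' median log2 ratio was -0.09, -0.04, -0.03 and -0.05 on replicates 1 to 4, where that of all genes was 0.01 to 0.04. Between 29 and 37 members were above 0 on an array. Over the gene means, the median of the members was -0.07, with quartiles of -0.22 and 0.06, and that of all genes was 0.001. With p-values from limma adjusted by Benjamini and Hochberg's method and a limit of 0.05, 23 of 85 members fell (27.1%, against 16.5% of all genes) and 8 rose (9.41%, against 21.6%). Without replicate 2 or without replicate 4 of 4 weeks, 13 members fell, and without replicate 1 of 4 weeks the members' median was -0.02. The number that rose was 4 without replicate 2 or replicate 3 and 5 without replicate 4. None passed an unadjusted p of at most 0.01 together with a 2-fold change, the thresholds of the study's methods, which 1.3% of all genes passed. In the brightest 10% of genes as a whole, 22.6% fell and 27.9% rose, while of the 80 members in it 21 fell and 7 rose.

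After 8 weeks the direction of the majority was the opposite. The members' median log2 ratio was 0.06, 0.18 and 0.16 on the 3 arrays and 0.15 over the gene means, with quartiles of 0.03 and 0.26, where that of all genes was 0.013. Of 85 members, 31 rose (36.5%, against 20.3% of all genes) and 5 fell (5.88%, against 17%). Without replicate 2 of 8 weeks, 14 rose and 1 fell. Between 1 and 8 members fell with single arrays left out: 8 without replicate 1 of 4 weeks, 2 without replicate 2 or replicate 4 of 4 weeks, 3 without replicate 1 and 2 without replicate 3 of 8 weeks. By its brightest probe, no member passed an unadjusted p of at most 0.01 with a 2-fold change, which 2.94% of all genes did. A dimmer *Rps3* probe, described below, did pass, with a mean log2 ratio of 1.04. In the brightest 10% of genes, 27.9% rose and 26.7% fell, while of the 80 members in it 30 rose and 2 fell.

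**Figure D1:**
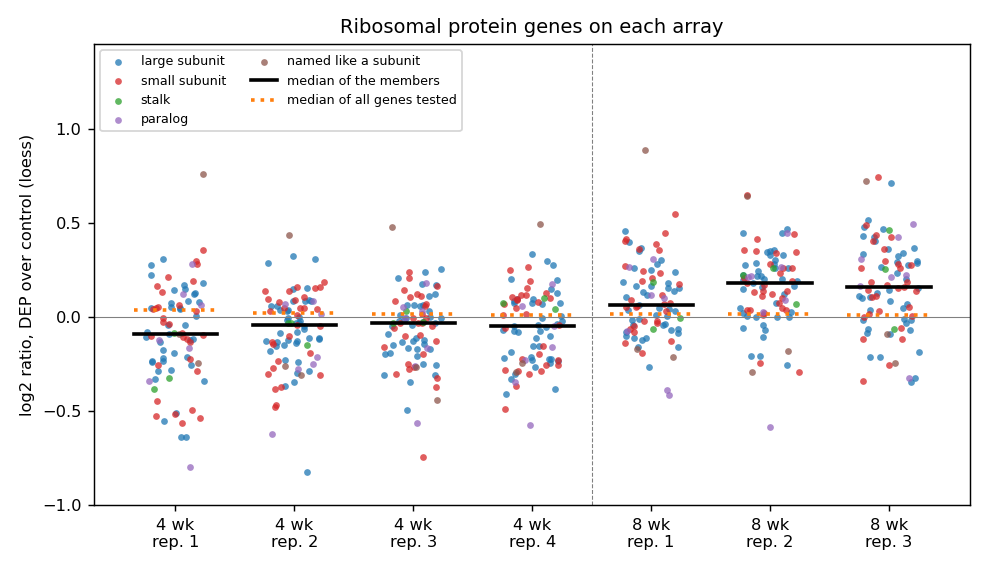
Log2 ratio of DEP over control (loess) of each of the 85 tested ribosomal protein genes (points, coloured by role) on each of the 7 arrays. Black bars mark the members' median (-0.09 to -0.03 on the 4-week arrays and 0.06 to 0.18 on the 8-week arrays) and dotted orange bars the median of all genes tested, which stays between 0.01 and 0.04.

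The ratios of these genes were mostly higher at 8 than at 4 weeks. The 8-week ratio exceeded the 4-week ratio in 76 of 85 members, the median difference was 0.19 on the log2 scale against 0.020 over all genes, and 26 members were higher at 8 weeks by the test of the difference itself (30.6%, against 14.9% of all genes). One member was lower, *Rpl3l* (1.18%, against 16.1%). Without replicate 2 of 8 weeks 11 members were higher and *Rpl3l* did not pass, and without replicate 3 of 8 weeks 17 were higher. Among the 84 members measured on every array, all 8-week arrays lay above all 4-week arrays for 40 (47.6%, against 21.1% of all genes) and below them for 2 (2.38%, against 21.1%). Of the 85 members, 3 fell at 4 weeks and rose at 8 weeks, 7 rose at both, 2 fell at both and 30 passed at neither. No share over all genes is given for these combinations, so they are a description only. Because the slides hold 1 exposure time each, the difference between times cannot be told apart from a difference between slides.

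**Figure D2:**
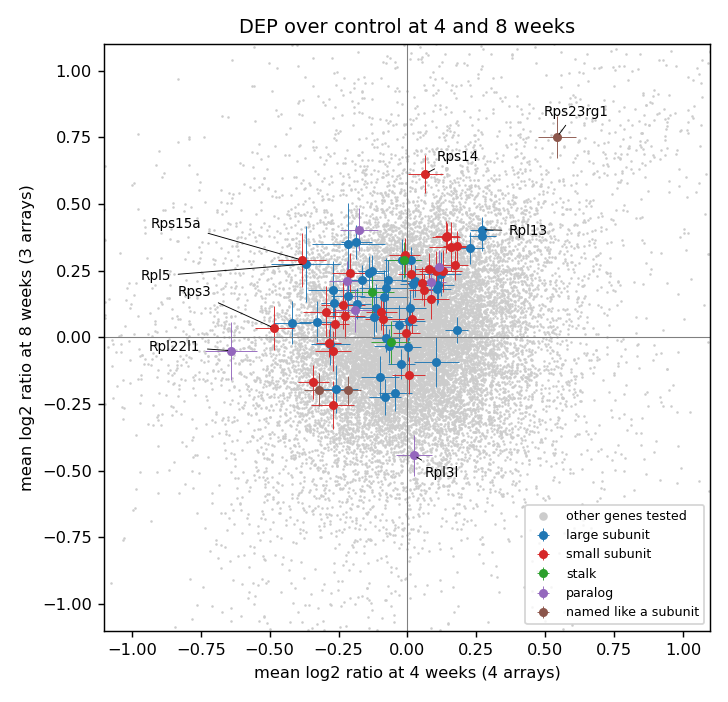
Mean log2 ratio of DEP over control at 4 weeks (x axis, 4 arrays) and at 8 weeks (y axis, 3 arrays) for the ribosomal protein genes by role, with standard errors from the fit, on a background of the other genes tested (grey). Most members lie left of or near 0 at 4 weeks and above 0 at 8 weeks (medians -0.07 and 0.15), and 711 other genes with a log2 ratio beyond 1.1 in size lie outside the frame.

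The scaling of the arrays changed these counts, and at 8 weeks also how the share that rose stood against that of all genes. When each array was centred on its median log2 ratio with no loess, the median of all genes in the fit became -0.04 at 4 weeks and -0.10 at 8 weeks. The members' median was then -0.11 at 4 weeks and 0.02 at 8 weeks, which relative to all genes is -0.07 and 0.13, close to the -0.07 and 0.14 with loess. Most of all genes were dimmer, and median centring leaves a trend with intensity in place. Within the brightest 10% of genes it gave the members -0.098 and 0.023 at 4 and 8 weeks, against -0.072 and -0.207 for all genes there. With loess these medians were -0.065 and 0.173 against 0.003 and 0.012. Among bright genes the gap with median centring was thus smaller at 4 weeks and larger at 8 weeks. With median centring, 29 members fell at 4 weeks (34.1%, against 21% of all genes) and 4 rose (4.71%, against 15.6%). At 8 weeks 12 rose (14.1%, against 12.3%) and 11 fell (12.9%, against 33.3%), so that the share that rose came close to that of all genes while the share that fell stayed well under it. Between the times, 11 members were higher at 8 weeks (12.9%, against 8.61%) and 1 lower (1.18%, against 21.2%). All 23 members that fell at 4 weeks with loess also fell with median centring, as did 5 of 5 at 8 weeks, whereas 4 of 8 kept the call of a rise at 4 weeks, 12 of 31 at 8 weeks and 10 of 26 for the difference. *Rpl36a* was the called member that changed sign, from 0.25 to -0.003 at 8 weeks.

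With the processed signals of the scanner software, the members' median was -0.08 at 4 weeks and 0.04 at 8 weeks, where all genes had 0.09 and 0.02. With these signals 25 members fell (29.4%, against 14.6% of all genes) and 2 rose (2.35%, against 30.8%) at 4 weeks. At 8 weeks 10 rose (11.8%, against 19.9%) and 9 fell (10.6%, against 19.2%), so that both shares lay under those of all genes. Between the times, 18 were higher (21.2%, against 13.5%) and 1 lower (1.18%, against 24.4%) at 8 weeks. Of the members called with loess, 19 of 23 kept the fall at 4 weeks, 8 of 31 the rise at 8 weeks and 18 of 26 the higher ratio at 8 weeks. *Rpl9*, *Rpl35*, *Rpl37rt* and *Rps27a* rose at 8 weeks with loess (0.29, 0.18, 0.21 and 0.25) and lay at -0.02, -0.11, -0.10 and -0.04 with the processed signals. A fall of part of the members at 4 weeks and a higher ratio at 8 than at 4 weeks were thus measured with each of the 3 scalings, whereas the share that rose at 8 weeks stood above that of all genes with loess, near it with median centring and below it with the processed signals.

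The members' ratios also differed along the intensity scale, which the loess curve of all genes did not remove. Over the 80 members of the brightest 10%, the mean log2 ratio at 4 weeks was the higher, the brighter the probe (mean log2 intensity 11.98 to 15.98), with a Pearson r of 0.63 and a Spearman rho of 0.62, while over the 1337 other genes in this span r was 0.09. These are correlations across genes, which share the arrays and are not independent replicates, so no p is given. With median centring r was 0.7 over the members and with the processed signals 0.42. Of the dimmer 40 of these 80 members, 17 fell at 4 weeks and none rose (limma; 0 rose at an unadjusted p of at most 0.05), with a median of -0.16. Of the brighter 40, 4 fell and 7 rose, with a median of 0.014. In the brightest 10% of genes as a whole 22.6% fell and 27.9% rose, so that the brighter members had fewer calls of either kind than these shares give. At 8 weeks r over the members was 0.25 with loess, 0.54 with median centring and -0.23 with the processed signals, so its sign depended on the scaling. For the difference between the times r was -0.37, -0.16 and -0.48 in the same order. Whether brightness has a part in the falls at 4 weeks was not tested.

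**Figure D3:**
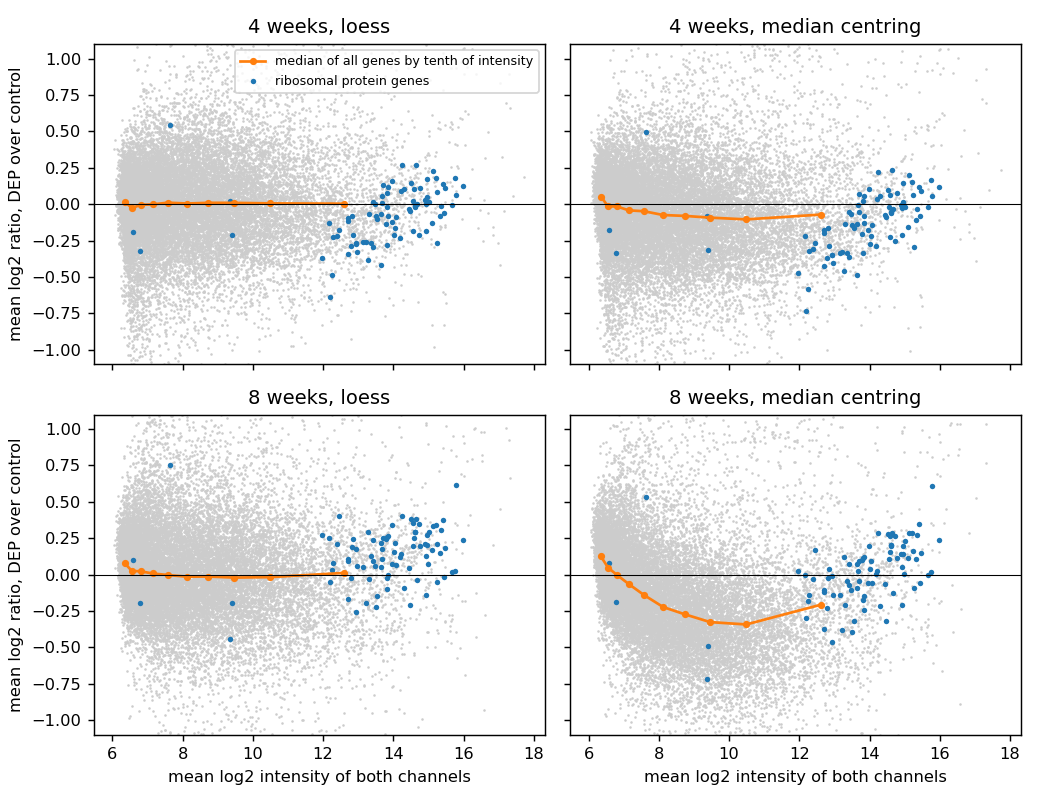
Mean log2 ratio against mean log2 intensity of both channels at 4 weeks (top) and 8 weeks (bottom), with loess (left) and median centring (right); grey points are all genes tested, blue points the ribosomal protein genes, and the orange line the median of all genes in each of 10 equal bins of intensity. At 4 weeks the members' ratios climb with intensity (r = 0.63 with loess), and with median centring at 8 weeks the other genes of the brightest bin lie below 0 while the members lie around it.

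Of the 42 large-subunit genes, 9 fell and 4 rose at 4 weeks (median -0.07), 13 rose and 2 fell at 8 weeks (median 0.15), and 13 were higher at 8 weeks by the test of the difference. Of all genes 16.5% fell and 21.6% rose at 4 weeks, 20.3% rose and 17% fell at 8 weeks, and 14.9% were higher at 8 weeks, and in the brightest 10% of genes 22.6% fell at 4 weeks and 27.9% rose at 8 weeks, so that the falls at 4 weeks and the rises at 8 weeks in this subunit lay near the latter. *Rpl22*, whose protein binds RNA and without which mice are viable, had log2 ratios of -0.64, -0.35, -0.31 and -0.38 at 4 weeks and -0.08, 0.20 and 0.04 at 8 weeks. It fell at 4 weeks by 0.42 on the log2 scale (SD 0.15, n = 4, adjusted p = 0.0031 in limma), and all 8-week arrays lay above all 4-week arrays. A dimmer second probe lay at 0.18 at 4 weeks, and with the mean over both probes *Rpl22* passed neither at 4 weeks (adjusted p = 0.0573) nor for the difference (0.914). *Rpl38*, a subunit known from the Tail short mouse, had 0.31, 0.31, 0.18 and 0.30 at 4 weeks and 0.35, 0.47 and 0.33 at 8 weeks. *Rpl13* had 0.28, 0.29, 0.24 and 0.28 at 4 weeks and 0.40, 0.34 and 0.47 at 8 weeks. Both of these rose at both times (*Rpl38*, adjusted p = 0.00393 and 0.00158; *Rpl13*, 0.00241 and 0.000651), and their calls held with any 1 array left out and with median centring, but with the processed signals the adjusted p was 0.0545 and 0.085 for *Rpl38* and 0.145 and 0.119 for *Rpl13*. With the mean over its probes *Rpl13* did not pass at 4 weeks (adjusted p = 0.712), and a second probe of it fell then (-0.16, adjusted p = 0.0265). *Rpl23* and *Rpl10*, the latter added late in the assembly of the large subunit, had means of 0.23 ± 0.08 and 0.18 ± 0.04 at 4 weeks (SD, n = 4), and rose then (adjusted p = 0.0109 and 0.0128). *Rpl23* did not pass at 4 weeks without replicate 2 of 4 weeks (0.0542) or with median centring (0.0589), and *Rpl10* did not without replicate 3 of 4 weeks (0.0549) or with the processed signals (0.25).

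Rpl5 and Rpl11 bind the 5S rRNA and, when free of the ribosome, the p53 regulator Mdm2. *Rpl5* was measured at -0.64, -0.37, -0.25 and -0.22 at 4 weeks and at -0.09, 0.20 and 0.71 at 8 weeks, the widest spread of any tested member at 8 weeks. The mean at 4 weeks was -0.37 ± 0.19 (SD, n = 4, adjusted p = 0.0506) and that at 8 weeks 0.28 ± 0.40 (SD, n = 3, adjusted p = 0.178). The difference passed (0.64, adjusted p = 0.0378) but no longer did so with any of 6 of the 7 arrays left out, replicate 1 of 8 weeks being the exception (adjusted p up to 0.0906). *Rpl11* had -0.12, -0.13, -0.16 and -0.33 at 4 weeks and 0.06, 0.16 and 0.16 at 8 weeks, so that the groups did not overlap. Its fall at 4 weeks (adjusted p = 0.0265) was lost without replicate 2, 3 or 4 of 4 weeks (up to 0.104), and its higher ratio at 8 weeks (0.31, adjusted p = 0.0217) without replicate 2 or 3 of 8 weeks (up to 0.0836). *Rpl34*, named after its values were seen, lay at -0.08 to -0.25 at 4 weeks and at 0.24 to 0.48 at 8 weeks, and its difference of 0.54 (adjusted p = 0.00286) held with any 1 array left out and with both other scalings. *Rpl12*, also named after its values were seen, lay at -0.83 on replicate 2 of 4 weeks and between -0.07 and 0.05 on the other 4-week arrays, and passed at neither time.

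Among the 30 small-subunit genes, 10 fell and 3 rose at 4 weeks, and 13 rose and none fell at 8 weeks in limma, where 2 (*Rps2* and *Rps7*) lay low at an unadjusted p of at most 0.05. Their medians were 0 at 4 weeks and 0.16 at 8 weeks, and 9 were higher at 8 than at 4 weeks by the test of the difference. The shares of all genes are those given above for the large subunit. *Rps3*, which sits where the mRNA enters the ribosome, had -0.45, -0.38, -0.74 and -0.37 at 4 weeks and -0.03, 0.14 and 0 at 8 weeks by its brightest probe. It fell at 4 weeks to 0.715 of the control level (adjusted p = 0.00175), and a second probe of this gene gave the opposite direction, as described below. *Rps15a* had -0.56, -0.47, -0.27 and -0.23 at 4 weeks and 0.03, 0.35 and 0.49 at 8 weeks. It fell at 4 weeks (adjusted p = 0.0114) and showed the highest difference between the times among the members, 0.67 (adjusted p = 0.00813), which held with any 1 array left out. *Rps14*, known from the 5q- syndrome, had 0.07, 0.05, -0.05 and 0.19 at 4 weeks and 0.45, 0.65 and 0.74 at 8 weeks. The 8-week arrays lay far above the 4-week arrays, with a mean of 0.61 ± 0.15 (SD, n = 3), and the rise at 8 weeks (adjusted p = 0.000563) and the difference (0.55, adjusted p = 0.00496) held with any 1 array left out and in both other scalings.

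*Rps28* had 0.21, 0.10, 0.11 and 0.16 at 4 weeks and 0.39, 0.35 and 0.40 at 8 weeks and rose at both times (adjusted p = 0.0336 and 0.000923). The 4-week call was lost without any 1 of the 4 arrays of that time or replicate 2 of 8 weeks (up to 0.103), and the 8-week call was kept with any array left out. *Rps19* and *Rps18*, the former mutated in Diamond-Blackfan anaemia and the latter often used as a reference gene, fell at 4 weeks by 0.29 and 0.26 on the log2 scale (adjusted p = 0.00227 and 0.00536) and lay at -0.02 and 0.05 at 8 weeks. Their 4-week arrays lay between -0.22 and -0.37 and between -0.13 and -0.37, and all 8-week arrays lay above these. *Rpl13a*, another gene used as a reference, lay between -0.13 and 0.08 at 4 weeks and between -0.02 and 0.18 at 8 weeks and passed at neither time, while its 2 dimmer probes fell at 4 weeks (-0.24 and -0.20) and rose at 8 weeks (0.28 and 0.38). *Rps2* fell at 4 weeks (-0.27 ± 0.20, SD, n = 4, adjusted p = 0.0289), a call lost without replicate 1, 2 or 4 of 4 weeks or replicate 2 of 8 weeks (up to 0.073), and was among the lowest at 8 weeks (-0.25, adjusted p = 0.0613), when its dimmer probe fell (-0.43, adjusted p = 0.000421). *Rps6*, the substrate of the S6 kinases, rose at 8 weeks (0.26 ± 0.09, SD, n = 3, adjusted p = 0.0104), but not without replicate 3 of 8 weeks (0.0533) or with median centring (0.254). *Rps27a*, made as a fusion with ubiquitin, rose at 8 weeks with loess (0.25, adjusted p = 0.0332), not without replicate 4 of 4 weeks or replicate 2 or 3 of 8 weeks (up to 0.16), and changed sign with the processed signals, as given above.

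Of the 5 members lowest at 8 weeks, *Rps2*, *Rpl18* and *Rpl10a* are usual subunits and *Rpl3l* and *Rps19bp1* are not. *Rpl18* and *Rpl10a* fell (-0.22 and -0.21, adjusted p = 0.0349 and 0.0481), and both lost the call without replicate 2 or 4 of 4 weeks or replicate 2 or 3 of 8 weeks, *Rpl10a* also without replicate 3 of 4 weeks (up to 0.162 and 0.209). *Rpl10a* and *Rpl29* had the lowest differences between the times after *Rpl3l* (-0.16 and -0.20), and neither passed (adjusted p = 0.214 and 0.273). Of the stalk, *Rplp1* rose at 8 weeks (0.19, 0.22 and 0.46, adjusted p = 0.0137), though not without replicate 3 of 8 weeks (0.0641). *Rplp0*, by its brightest probe, and *Rplp2* passed at neither time, with means of -0.06 and -0.13 at 4 weeks and -0.02 and 0.17 at 8 weeks. By this probe *Rplp0* had -0.32 on replicate 1 of 4 weeks and between -0.06 and 0.07 on the other 6 arrays. A dimmer *Rplp0* probe (mean log2 intensity 14.21) fell at 4 weeks (-0.251, adjusted p = 0.0046) and was higher at 8 weeks (0.22, adjusted p = 0.0491). The remaining *Rplp0* probe passed at neither time.

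Paralogs departed from their parent genes in part. The 7 tested paralogs gave 2 falls at 4 weeks, 3 rises and 1 fall at 8 weeks, and 3 higher and 1 lower in the difference. The shares of all genes are those given above. *Rpl22l1*, which in many cells is made in larger amounts when Rpl22 is lacking, was the lowest member at 4 weeks, with -0.80, -0.62, -0.56 and -0.58, and had -0.39, 0.03 and 0.21 at 8 weeks. It fell at 4 weeks to 0.642 of the control level (adjusted p = 0.00173), alongside the brightest probe of *Rpl22* and not against it. The dimmer *Rpl22* probe lay on the other side of 0 at 4 weeks (0.176, adjusted p = 0.0693). The fall of *Rpl22l1* held with any 1 array left out. The difference of *Rpl22l1* between the times (0.59, adjusted p = 0.0185) did not hold without replicate 2 or 3 of 8 weeks (up to 0.0738) or with median centring (0.0573). *Rpl3l*, a paralog found mainly in muscle, had -0.12, 0.09, 0.18 and -0.05 at 4 weeks and -0.42, -0.59 and -0.33 at 8 weeks, whereas *Rpl3* had -0.55, -0.12, -0.12 and -0.24 and then -0.26, -0.10 and -0.21. *Rpl3l* fell at 8 weeks to 0.736 of the control level (adjusted p = 0.00352) and was the 1 member lower at 8 than at 4 weeks (-0.47, adjusted p = 0.0121; 0.0547 without replicate 2 of 8 weeks). Of 5 skeletal muscle markers, 3 fell and 1 rose at 8 weeks, with a median over the list of -0.76 to -0.44 on single arrays, against -0.42 to 0.17 at 4 weeks, and *Ckm* and *Acta1* had -1.32 and -0.95 while *Myh4* had 0.82. The part of muscle tissue in the *Rpl3l* result was not tested. *Rpl3* fell at 4 weeks (adjusted p = 0.0331), which was lost without replicate 1 or 4 of 4 weeks or replicate 2 of 8 weeks (up to 0.0788).

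*Rpl36al* and *Rpl36a*, which encode nearly the same protein, moved alike by their brightest probes. *Rpl36al* had 0.06, -0.28, -0.26 and -0.23 at 4 weeks and 0.27, 0.45 and 0.50 at 8 weeks, and *Rpl36a* had -0.04, -0.12, -0.20 and -0.15 and then 0.14, 0.24 and 0.37. Both were higher at 8 weeks (0.58, adjusted p = 0.00633, and 0.38, adjusted p = 0.0116), with no overlap between the times, and *Rpl36a* did not pass with median centring (0.117). The 2 other probes of *Rpl36a*, nearly as bright, fell at 4 weeks (-0.443 and -0.322, adjusted p = 0.0039 and 0.00629). At 8 weeks these probes did not pass (0.036 and 0.215, adjusted p = 0.801 and 0.0527), and both were higher than at 4 weeks (0.479 and 0.538, adjusted p = 0.0203 and 0.00558). *Rps27l*, a p53 target, and *Rps27* both fell at 4 weeks (-0.22, adjusted p = 0.0364, and -0.27, adjusted p = 0.0151). At 8 weeks *Rps27l* lay at 0.12, 0.09 and 0.43 and *Rps27* at -0.08, 0.04 and -0.12. The 4-week call of *Rps27l* was lost without any 1 of the 4-week arrays (up to 0.105). *Rpl39* fell at 4 weeks (-0.33, adjusted p = 0.00741), and the much dimmer *Rpl39l*, known from testis, was well above background on 1 of the 4-week arrays in each channel, so that its ratio at that time (-0.19 with loess and -0.50 with the processed signals) is uncertain. Paralog probes can bind transcripts of the parent gene, and this was not tested.

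**Figure D4:**
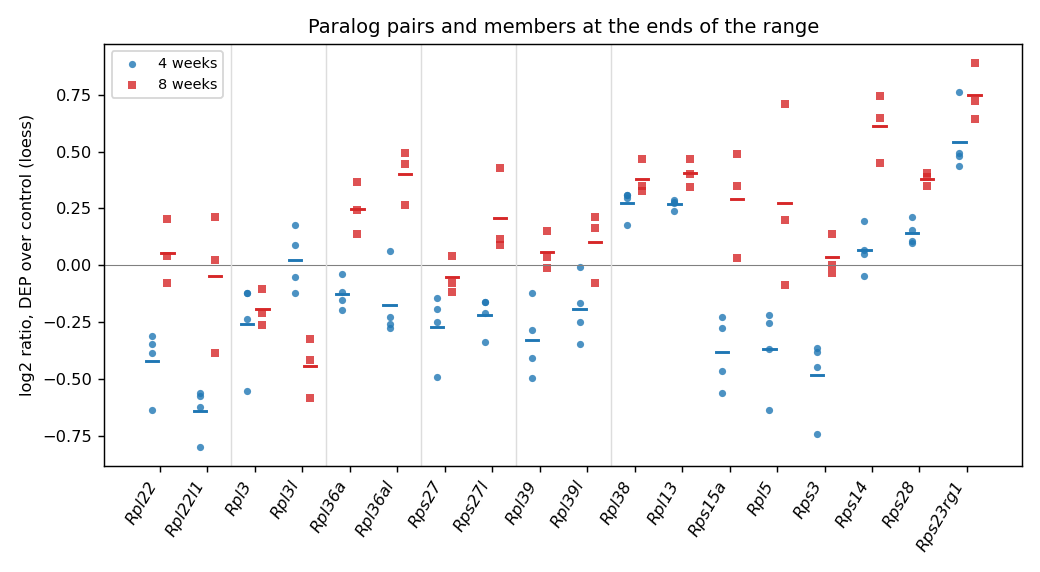
Log2 ratio of DEP over control (loess) on single arrays for 5 paralog pairs (left, each pair between grey lines) and for 8 members at the ends of the range (right), with blue circles for the 4 arrays of 4 weeks, red squares for the 3 arrays of 8 weeks and bars for the means. *Rpl3l* is the 1 gene shown whose 8-week values lie below its 4-week values, and *Rps23rg1* lies between 0.44 and 0.89.

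Of the 3 genes that are not usual subunits, *Rps23rg1*, named as a retrogene of Rps23, was the highest member at both times, with control signal well above background on 2 of the 4 arrays at 4 weeks. It had 0.76, 0.44, 0.48 and 0.49 at 4 weeks and 0.89, 0.64 and 0.72 at 8 weeks. It rose at both times (adjusted p = 0.000856 and 0.000306), by a size that depended on the scaling, with mean log2 ratios of 0.54 and 0.75 with loess and 1.15 and 0.90 with the processed signals, while *Rps23* itself had means of -0.23 and 0.12. *Rps19bp1*, which binds Rps19 and regulates Sirt1, and *Rpl7l1* fell at both times (-0.22 and -0.20; -0.32 and -0.20). At 8 weeks both lost the call without single arrays (adjusted p up to 0.104 and 0.215), namely any 1 of the 8-week arrays for *Rps19bp1* and replicate 2 or 4 of 4 weeks or replicate 1 or 2 of 8 weeks for *Rpl7l1*. At 4 weeks *Rps19bp1* lost it without replicate 2 of 4 weeks (0.0513). The *Rpl7l1* probe was dim (mean log2 intensity 6.78) and well above background on 3 of the 4-week arrays in each channel. At 8 weeks its control signal was well above background on 2 of the 3 arrays.

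Probes of 1 gene did not always agree, which limits what a single probe says of a gene. Of the tested members 35 had 1 probe and 50 had several, up to 7, and between the probes of a gene the mean log2 ratio spanned a median of 0.17 at 4 weeks and 0.21 at 8 weeks. Over all 164 probes, 49 were lower and 11 higher at 4 weeks, and 9 lower and 54 higher at 8 weeks, with no share over all tested probes given beside them. In 5 genes probes passed in opposite directions at 4 weeks, in 1 gene at 8 weeks and in 1 gene for the difference. The brightest probe of *Rps3* had a mean of -0.48 at 4 weeks and 0.04 at 8 weeks. Its other probe had a mean log2 intensity of 9.70 against 12.25. It gave 0.39, 0.28, 0.20 and 0.29 at 4 weeks and 0.95, 1.01 and 1.16 at 8 weeks. This dimmer probe rose at both times (adjusted p = 0.0049 and 1.58e-05 in limma) and reached a mean of 1.04, above every other probe of the members. At 8 weeks it thus passed the thresholds of the study's methods, which the brightest probe did not. *Rpl22* had a second probe that was lower at 8 than at 4 weeks (0.18 and then -0.32, difference -0.50, adjusted p = 0.00903), against 0.47 by its brightest probe. The 3 probes of *Rpl13* had 0.27, -0.16 and -0.05 at 4 weeks, those of *Rpl23* 0.23, -0.12 and -0.41, and those of *Rps24* 0.05, 0.17 and -0.13, the second *Rps24* probe being measured on 3 of the 4 arrays.

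The 7 tested probes of *Rpl17* ranged from -0.47 to -0.02 at 4 weeks and from -0.27 to 0.26 at 8 weeks. At 4 weeks the *Rpl17* probes at -0.471, -0.455, -0.423 and -0.232 fell (adjusted p up to 0.0193 in limma), and at 8 weeks 2 rose and 1 fell. Its brightest probe, which stands for the gene in the counts above, was measured on 3 of the 4-week arrays because 1 spot was not uniform, and passed at neither time. With the mean over all probes of a gene, 27 members fell and 3 rose at 4 weeks, 28 rose and 6 fell at 8 weeks, and 29 were higher and 1 lower at 8 than at 4 weeks. *Rpl23* then lay at -0.10 at 4 weeks, and the difference of *Rpl22* was -0.01. Among the named members, the calls of *Rpl10*, *Rpl13*, *Rpl22*, *Rpl23*, *Rpl34* and *Rps3* at 4 weeks, of *Rpl23*, *Rpl36a*, *Rps6*, *Rps24* and *Rps27a* at 8 weeks, and of *Rpl22* and *Rpl39* for the difference were lost with this mean.

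**Figure D5:**
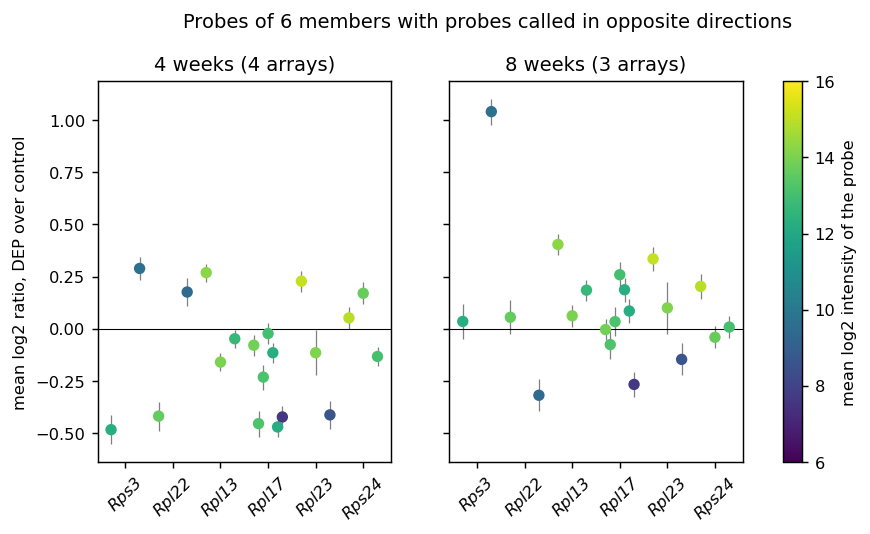
Mean log2 ratio of DEP over control of each probe of 6 members with probes called in opposite directions, at 4 weeks (left) and 8 weeks (right), with standard errors from the fit; colour gives the probe's mean log2 intensity. The dimmer probe of *Rps3* (mean log2 intensity 9.70) lies at 0.29 and 1.04, apart from its brighter one at -0.48 and 0.04.

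The subunits whose symbols fall outside the name rule were few. None of *Rpsa*, *Fau* and *Rack1* passed at 4 weeks (0.10, -0.14 and -0.05, adjusted p = 0.165, 0.133 and 0.502), and at 8 weeks *Rpsa*, the laminin receptor, rose (0.19, 0.24 and 0.14, adjusted p = 0.0444) and *Fau*, whose product is cleaved to Rps30, fell (-0.25, -0.27 and -0.45, adjusted p = 0.0135). The call of *Rpsa* was lost without any 1 array but replicate 1 of 4 weeks (up to 0.199), and its value was -0.006 with the processed signals and -0.01 as a mean over its probes. *Fau* did not pass without replicate 2 or 3 of 8 weeks (up to 0.0761).

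Among other genes of translation, initiation factors and mitochondrial ribosomal proteins fell more often than they rose at both times. Beside the counts below, 16.5% of all genes fell and 21.6% rose at 4 weeks, and 17% fell and 20.3% rose at 8 weeks. Of 8 elongation factors 1 rose and 2 fell at 4 weeks, and 1 fell at 8 weeks, with medians of -0.05 and -0.03. *Eef2*, the translocase, was the highest at 4 weeks (0.25, adjusted p = 0.0433), which was lost with both other scalings and without replicate 1, 2 or 3 of 4 weeks or replicate 2 or 3 of 8 weeks (up to 0.148). *Eef1b2* was the lowest (-0.60, -0.34, -0.22 and -0.20, adjusted p = 0.0269; up to 0.084 without replicate 1 or 2 of 4 weeks) and was higher at 8 weeks by 0.63 (adjusted p = 0.0152; 0.0527 without replicate 2 of 8 weeks). Of 44 initiation factors 17 fell and 4 rose at 4 weeks and 16 fell and 6 rose at 8 weeks (medians -0.12 and -0.09), between *Eif3a*, at -2.55 on replicate 4 and -0.17 to -0.04 on the other 4-week arrays, and *Eif4g3* (0.35, adjusted p = 0.00668). The 77 tested mitochondrial ribosomal proteins, which translate mitochondrial mRNAs, fell in 30 cases and rose in 5 at 4 weeks, and fell in 19 and rose in 4 at 8 weeks, with medians of -0.16 and -0.13. Their ends at 4 weeks were *Mrpl19* (-0.52, adjusted p = 0.00858) and *Mrpl39* (0.38, adjusted p = 0.00192). The median difference between the times was 0.015 in these genes, against 0.19 in the cytosolic members, and the difference between the lists was not tested.

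Ribosome biogenesis genes fell in 16 of 30 cases and rose in 4 at 4 weeks (median -0.20) and fell and rose in 4 each at 8 weeks (median -0.05). For these and the lists that follow, the shares of all genes are those given above. *Nolc1*, a nucleolar chaperone, was the lowest at 4 weeks (-0.48, adjusted p = 0.0115), and *Ubtf*, the factor of the rRNA gene promoter, the highest, with 0.94, 1.06, 1.12 and 1.03 at 4 weeks and 1.14, 1.14 and 1.04 at 8 weeks (adjusted p = 7.59e-06 and 6.81e-06). *Npm1*, named after its values were seen, had -0.45, -0.31, -0.33 and -0.36 and then 0.19, 0.42 and 0.45, a difference of 0.71 (adjusted p = 0.00101). Of 8 other TOP mRNAs 2 fell at 4 weeks, 1 rose at 8 weeks and 4 were higher at 8 weeks by the test of the difference, with *Vim* the lowest at 4 weeks (-0.43, adjusted p = 0.00107) and *Pabpc1* the highest (-0.02, adjusted p = 0.869). Of 12 tested S6 kinases and regulators of translation 1 fell at 4 weeks, and 2 rose and 2 fell at 8 weeks. At 4 weeks they ranged from *Rps6ka3* (-0.33, adjusted p = 0.00447) to *Rps6kb2* (0.22, adjusted p = 0.0718). *Larp1* and *Rps6kb1* (S6 kinase 1), named after their values were seen, were the 2 that rose at 8 weeks. *Larp1* had 0.68, 0.77 and 0.86 (adjusted p = 0.000315 in limma), and *Rps6kb1* had 0.33, 0.58 and 0.48 (adjusted p = 0.00657). *Rps6kb1* did not pass without replicate 2 of 8 weeks (0.0533), with median centring (0.247) or with the mean over its probes (0.142).

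Markers of several cell types differed between DEP and control tissue on the same arrays, and their part in the ribosomal protein results was not tested. Those of tooth and bone moved in the order of the members, with 5 of 5 lower at 4 weeks (the list's median was -1.53 to -1.36 on single arrays) and 5 of 5 higher at 8 weeks (0.70 to 1.00). Markers of B and plasma cells did so too, with 4 of 4 tested lower at 4 weeks (-0.37 to -0.17) and 3 higher and none lower at 8 weeks (0.36 to 0.49). In the other order, 5 of 6 markers of mature olfactory neurons were higher at 4 weeks (0.36 to 0.66) and 6 of 6 lower at 8 weeks (-0.72 to -0.62), and those of sustentacular cells were higher in 3 of 4 (0.21 to 0.28) and then lower in 2 and higher in 1 (-0.37 to -0.22). Neutrophil markers were lower in 3 of 4 tested and higher in 1 at both times (-1.04 to -0.90 and -1.34 to -1.22). Erythroid markers were higher in 2 of 4 tested at 4 weeks (-0.03 to 0.19) and lower in 4 of 4 at 8 weeks (-0.74 to -0.62). Ciliated cell markers were higher in 2 of 4 at each time (0.20 to 0.28 and 0.20 to 0.34). Of 5 markers of secretory epithelium and glands 2 were higher and 1 lower at 4 weeks (0.06 to 0.33) and 3 higher and 1 lower at 8 weeks (0.06 to 0.54). *Omp*, which defines olfactory neurons, was among the brightest probes (mean log2 intensity 16.37), with log2 ratios of 0.89 and -0.43. For all of these marker counts, the shares of all genes are those given above.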

How the data were processed

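Total RNA of nasal tissue was hybridised to 7 Agilent 2-colour arrays, 4 for 4 weeks and 3 for 8 weeks of exposure. Per the file headers, the authors deposited 1 Agilent Feature Extraction 10.10.1.1 file per array, with median spot and background intensity of both channels, processed signals and quality flags; the GeneSpring normalization of the study's methods is not in these files. In limma 3.58.1 (R 4.3.3), median intensities were background-corrected (normexp, offset 50, fitted without background outliers) and loess-normalized within arrays, non-uniform spots were left out and spots of a probe averaged. A probe was tested where 3 or more of the 7 arrays flagged either of its channels as well above background. All 25162 tested probes entered 1 linear model, in which each exposure time had its own mean, with empirical Bayes and Benjamini-Hochberg adjustment, and the brightest tested probe stood for a gene. The number of arrays limits the precision. Symbols came from RefSeq (GRCm38.p6) through the probes' transcript accessions. The scripts were tested on simulated data.

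Named were the 5 highest and 5 lowest members at each time and the 3 highest and 3 lowest differences, the paralog pairs, the stalk, members with known roles, subunits outside the name rule, members with opposed probes, and the highest and lowest gene of each list at 4 weeks. Members, roles, lists and markers were chosen with earlier results of these data known, and the roles of *Rpl37rt*, *Rpl32l* and *Rps23rg1* after their names were seen. Alternatives were median centring, processed signals, other background corrections and filters, scaling between arrays, the mean over probes, a fit within 1 exposure time, the replicate number as a block, single arrays left out, and the methods' t-test. Some genes that the naming rule gave are not reported here.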

Additional observations from a re-analysis of the deposited data

Results flagged for a closer look

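Of 58 results for named genes with 4 arrays at 4 weeks, 8 had 1 array far from the other 3, where chance gives about 1 in 20 (a nominal rate, as these genes share the arrays). The log2 ratio on that array was -2.545 for *Eif3a* and -0.551 for *Vim* (replicate 4), -0.825 for *Rpl12* (replicate 2), 0.175 for *Rpl38* (replicate 3), and on replicate 1 -1.01 for *Mrpl19*, 0.062 for *Rpl36al*, -0.091 for *Rps19bp1* and -0.108 for *Rps24*. Of these 8, 4 lay on replicate 1.

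The log2 ratio of 22 named genes differed between 8 and 4 weeks by the test of the difference in limma. Among the members it was higher at 8 weeks by 0.673 in *Rps15a*, 0.644 in *Rpl5*, 0.589 in *Rpl22l1*, 0.578 in *Rpl36al*, 0.548 in *Rps14*, 0.541 in *Rpl34*, 0.519 in *Rps3* and 0.474 in *Rpl22*. Smaller differences were 0.428 in *Rps27l*, 0.385 in *Rpl39*, 0.376 in *Rpl36a*, 0.314 in *Rps18*, 0.309 in *Rpl11*, 0.301 in *Rplp1*, 0.265 in *Rps19* and 0.237 in *Rps28*. None of these smaller differences passed with median centring (adjusted p = 0.0869 to 0.208 in limma). The difference was lost without any of 6 single arrays in *Rps28*, 5 in *Rplp1* and 4 in each of *Rpl39* and *Rps19*. In *Rpl3l* the difference was -0.466. Outside the members it was 0.714 in *Npm1*, 0.633 in *Eef1b2*, 0.619 in *Larp1*, 0.55 in *Rps6kb1* and 0.332 in *Vim*. With the mean over probes, the differences of *Larp1* and *Rps6kb1* did not pass (adjusted p = 0.429 and 0.17 in limma). With median centring, those of *Rps6kb1* and *Vim* did not (0.0662 and 0.357). Time and slide cannot be told apart in any of the 22 genes.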

How the results depend on the processing

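The median difference between the times kept its direction under every alternative run, at 0.128 with median centring, 0.131 with processed signals and 0.186 to 0.205 with the others, against 0.191. The counts that follow are totals under each alternative. Against 8 members higher at 4 weeks there were 3 with the mean over probes, 4 with median centring, 2 with processed signals, 4 with the replicate block, 4 with the methods' t-test and 4 to 8 with single arrays left out. Against 23 lower at 4 weeks there were 15 with the block (14 of the 23 kept the call), 7 with the t-test and 13 to 25. The median at 4 weeks (-0.068) was -0.095 with the mean over probes, -0.109 with median centring and -0.068 to -0.024 with arrays left out. For 31 higher at 8 weeks, the counts were 12 with median centring, 10 with processed signals, 14 with the block, 18 with the t-test and 14 to 33. For 5 lower at 8 weeks, they were 11 with median centring, 2 with no filter, 3 with normexp on all spots, 9 with processed signals, 1 with the block, 3 with the t-test and 1 to 8. The median at 8 weeks (0.154) was 0.023 with median centring and 0.039 with processed signals. For 26 higher at 8 than 4 weeks, the counts were 11 with median centring, 9 with the block and 11 to 30, and for 1 lower, 0 with the block and 0 to 1. Reversed values were, with the mean over probes, *Rpl23* at 4 weeks (-0.1), the difference of *Rpl22* (-0.011) and *Rpsa* at 8 weeks (-0.011), with median centring *Rpl36a* at 8 weeks (-0.003), and with processed signals *Rps27a* and *Rpsa* at 8 weeks (-0.035 and -0.006). The cause was not tested. Deviations of same-numbered arrays correlated at -0.006, -0.007 and 0.017, so they shared no measurable deviation. These values cannot tell whether same-numbered arrays share animals or RNA, which the sources used here do not give. Over 171 results for named genes, 2490 of 2838 values kept direction and side of the threshold, 230 lost and 81 gained the call, 31 moved and 6 reversed. Of 80 named calls 42 held with any 1 array left out, and 30 were lost without replicate 2 of 8 weeks.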

Other observations

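*Rpl10l* was not tested because its 2 probes were too dim (mean log2 intensity 6.25 and 6.22). The first had log2 ratios of -0.63, 0.11, 0.04 and -0.06 at 4 weeks and 0.01, -0.02 and -0.12 at 8 weeks, and the second -0.62, -0.23, -1.06 and -0.01 and then 0.18, -0.06 and 0.11.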
